A study of Rattus norvegicus with 12 samples.

Results

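The mitochondrial carriers of the Slc25 family were followed in rat liver through the carbon tetrachloride model of cirrhosis. A gene was counted as a carrier when its single symbol on the array began with Slc25a or was Ucp1, Ucp2 or Ucp3. The 36 carriers described here are among 13912 genes with a single symbol and were measured by 47 of 31099 probe sets. For each gene the brightest probe set was used, that is, the one with the highest mean of log2(signal + 16) over all arrays. A current RefSeq gene table matched 36 of the 36 and lists 52 genes of the family.

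Slc25 carriers are related proteins, most of them in the inner mitochondrial membrane, that move nucleotides, phosphate, carboxylates, amino acids, cofactors or protons between the cytosol and the matrix. In liver they link the matrix to urea synthesis, gluconeogenesis, fatty acid oxidation, fatty acid synthesis and ATP export. Each carrier moves few substrates, so the substrate of a member tells which exchange it serves.

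The animals were Sprague-Dawley rats, and the labels give an age of 12 weeks for every group. Normal liver (0h) was compared with liver taken 3, 6 and 9 weeks into the carbon tetrachloride cirrhosis model (3w, 6w and 9w), on Affymetrix Rat Genome 230 2.0 arrays, which hybridise labelled RNA to sets of short probes. Each of the 4 groups had 3 arrays, 12 in all, which the labels call technical replicates, so p-values measure the spread between arrays and not between animals. The sources used here give no dose, vehicle or number of animals. Normal liver is the only control, so time, handling and treatment cannot be told apart in a comparison with 0h. If the 12 weeks are the age at the start of the model, age cannot be told apart from them either.

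Signals are linear, in the authors' scaled units, and changes are differences of log2(signal + 16). A member was called (it rose or fell) when limma gave it at least a 2-fold change and an adjusted p under 0.05, by Benjamini-Hochberg across the 10319 genes in the fit. Of the 36 carriers, 33 passed the filter on low signals, a mean signal of about 75.5, and were tested. Signal does not compare between probe sets, so no carrier's level is set against another's. The liver label held: all 10 hepatocyte markers passed the filter and 0 of 10 were called against 0h, although 8 of 10 were lower with adjusted p under 0.05 at 6w and at 9w. The tissue is bulk liver, so fewer cells of a type and less RNA per cell cannot be told apart. The 0h arrays stood apart in genes of pancreatic enzymes: Cpa1, a carboxypeptidase, read 6043.6 to 6537.7 at 0h and between 8.3 and 56.4 in the other 9 arrays, and Ela1, an elastase, fell at all 3 times. Another carboxypeptidase, Cpb1, fell at 6w (-1.82) and 9w (-1.86), while Prss1 and Ctrb1 were below the filter. The other marker tested, an amylase (Amy2a3), was not called against 0h. Its changes were -0.61 at 6w and -0.37 at 9w, both with adjusted p under 0.05. The 6 markers summed to 22700–24110 at 0h, 14990–15760 at 3w, 10440–11360 at 6w and 12440–12730 at 9w, with none at 0. Their part in the comparisons with 0h was not tested.

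Against 0h, 4 carriers were called at 1 or more times. Slc25a4 rose at 6w and 9w, Slc25a22 rose at 6w and 9w, Slc25a23 rose at all 3 times by its brightest probe set, and Slc25a30 fell at 6w and 9w. Slc25a25 was called between 6w and 3w only, among the 5 comparisons. At 3w, 1 carrier rose and none fell, 1 of 33 (3.03%), where 4.22% of all genes tested were called (2.93% rose and 1.29% fell). At 6w, 3 rose and 1 fell, 4 of 33 (12.1%), against 9.59% of all genes (5.16% rose and 4.44% fell). At 9w, 3 rose and 1 fell, again 4 of 33, against 9.95% of all genes (6.33% rose and 3.62% fell). These shares are near the background, so the counts say nothing particular about the family, and the results lie in the single members. The 3 comparisons share the 0h arrays.

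The median change of the 33 carriers was 0.05 at 3w, 0.21 at 6w and 0.12 at 9w, beside 0.01, 0.03 and 0.07 for all genes tested. By the adjusted p alone, 8 carriers were higher and 8 lower at 3w, against 42.5% of all genes in either direction (22.5% higher, 20% lower). At 6w 13 were higher and 6 lower, against 54.5% of all genes (30% and 24.4%), and at 9w 12 were higher and 10 lower, against 55.7% (32.9% and 22.8%). Of the 33, 28 (84.8%) had an adjusted p under 0.05 in at least 1 of the 5 comparisons, beside 77.4% of all genes tested, 23 of them without ever being called at 2-fold, and 5 had none.

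**Figure D1:**
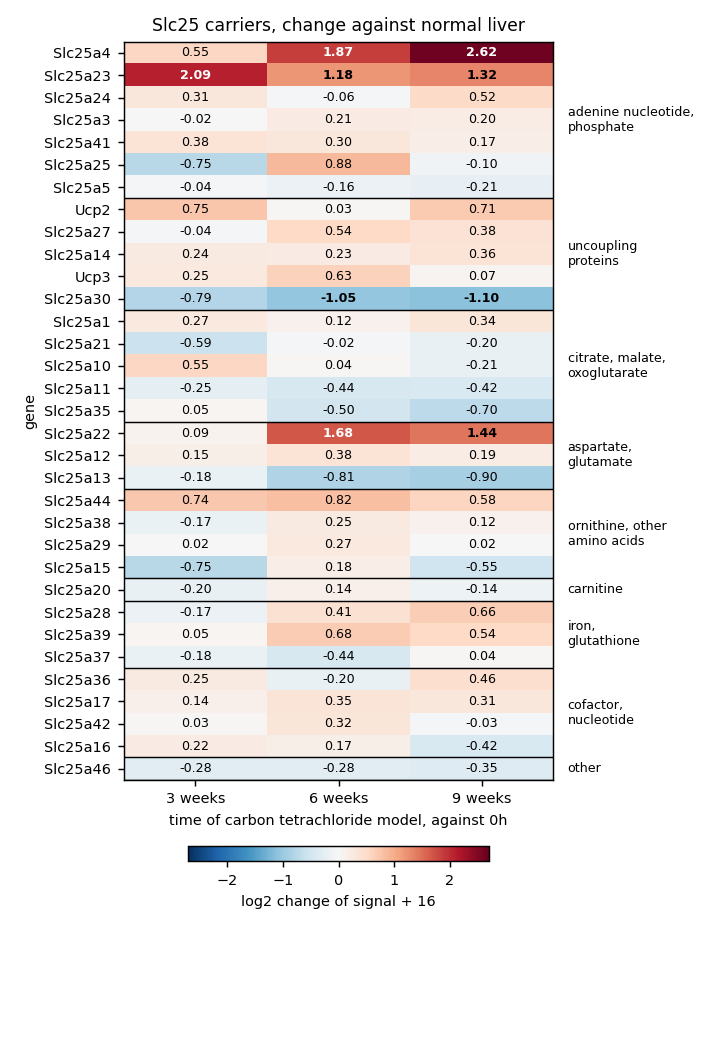
Log2 change of signal + 16 against 0h (colour and printed number) for the 33 tested carriers (rows, grouped by substrate) at 3, 6 and 9 weeks (columns), each from 3 arrays per group; bold numbers are called changes. The highest value is Slc25a4 at 9 weeks (2.62) and the lowest is Slc25a30 at 9 weeks (-1.10), and most cells lie within 1 log2 unit of 0.

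The promoters of 3 called carriers are shown because each gene moved in a different time pattern: Slc25a4 was higher at each later time, Slc25a22 stepped up between 3w and 6w, and Slc25a25 was low at 3w and high at 6w. They are RefSeq sequences on GRCr8, running 5′ to 3′ on the gene's strand from 250 bases before the annotated start to 50 bases after it. Capitals mark matches, on either strand, to the CCAAT box (CCAAT), the GC box (GGGCGG) or the cAMP response element (CRE, TGACGTCA); ATTGG in capitals is a CCAAT box on the other strand. The windows are chr16:52805271-52805570 on the plus strand for Slc25a4, chr1:205965828-205966127 on the minus strand for Slc25a22 and chr3:36116532-36116831 on the minus strand for Slc25a25.
Slc25a4: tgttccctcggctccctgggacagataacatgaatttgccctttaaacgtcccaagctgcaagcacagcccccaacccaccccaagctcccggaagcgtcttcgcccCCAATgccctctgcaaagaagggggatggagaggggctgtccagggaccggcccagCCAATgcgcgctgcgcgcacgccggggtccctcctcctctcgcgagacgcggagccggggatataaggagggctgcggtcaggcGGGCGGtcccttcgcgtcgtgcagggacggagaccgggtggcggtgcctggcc
Slc25a22: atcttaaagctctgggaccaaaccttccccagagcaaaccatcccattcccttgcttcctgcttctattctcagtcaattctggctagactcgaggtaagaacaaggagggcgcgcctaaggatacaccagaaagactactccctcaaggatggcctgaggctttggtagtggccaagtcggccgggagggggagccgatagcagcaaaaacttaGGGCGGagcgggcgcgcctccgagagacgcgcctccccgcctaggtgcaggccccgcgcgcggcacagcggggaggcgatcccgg
Slc25a25: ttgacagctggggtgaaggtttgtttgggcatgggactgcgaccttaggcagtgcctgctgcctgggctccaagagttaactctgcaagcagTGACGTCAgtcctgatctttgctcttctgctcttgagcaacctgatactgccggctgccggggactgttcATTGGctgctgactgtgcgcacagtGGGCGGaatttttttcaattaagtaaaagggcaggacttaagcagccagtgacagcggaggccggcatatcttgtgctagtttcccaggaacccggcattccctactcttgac

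The promoter table held 32 of the 36 carriers. The full CRE was found in 1 of these 32 windows, that of Slc25a25, at -158 to -151 from the start, and in 2.1% of the 21842 protein-coding promoter windows of the same length. The CCAAT box was in 16 of 32 carrier windows and 38% of all windows, and the GC box in 22 of 32 and 41.8%. The Slc25a4 window held CCAAT boxes at -143 to -139 and -87 to -83, and the Slc25a22 window held neither a CCAAT box nor a CRE, but a GC box at -35 to -30. The other motifs searched were in few carrier windows: TATAAA in 2 (13% of all windows), CACGTG in 1 (7.01%), the NRF1 site in 1 (5.66%) and the C/EBP-ATF element TGATGNAA in 0 (3.35%). These are letter matches and not measured sites. A promoter for Slc25a30 was not used here.

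Among the carriers of adenine nucleotides and phosphate, Slc25a4 rose, with the highest change of the 33 carriers tested. Slc25a4 encodes the ADP/ATP carrier best known from heart and skeletal muscle, which exports matrix ATP for cytosolic ADP. Its signal was 533.3, 502.3 and 466.1 in the 0h arrays and 720.4, 791.8 and 710.5 in the 3w arrays. It was 1919.2, 1905.0 and 1784.4 at 6w and 3234.1, 3107.4 and 3103.4 at 9w. Every array of a later time lay above every array of an earlier time. The log2 change against 0h was 0.55 ± 0.07 (SE, adjusted p = 4.33e-06) at 3w, 1.87 ± 0.07 (adjusted p = 3.08e-13) at 6w and 2.62 ± 0.07 (adjusted p = 4.94e-15) at 9w, from 3 arrays per group. At 9w this was 6.13-fold on the signal + 16 scale. It rose by 1.32 from 3w to 6w, and was a further 0.75 log2 units higher at 9w than at 6w (adjusted p = 2.46e-07), under 2-fold. In the authors' deposited table the mean log2 ratios for the same probe set were 0.422, 1.611 and 2.456.

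Since Slc25a4 is a muscle carrier elsewhere, muscle markers were read beside it. Of 7 skeletal and heart muscle markers on the array, 5 were below the filter, 0 were called in any of the 5 comparisons, and their summed signal was 226.9–346.5 at 0h, 245.0–361.3 at 3w, 235.6–355.7 at 6w and 282.8–393.6 at 9w, with none at 0. One of those below the filter, Tnnt2, the cardiac troponin T, read 46.5 to 72.3 at 9w and at most 16.3 in the other arrays. Tnnt2 was therefore not tested. The 2 muscle markers that were tested changed by -0.16 and 0.07 at 9w, neither with an adjusted p under 0.05. Of 9 stellate cell and fibroblast markers, 5 rose at 3w (Acta2, Col1a1, Col3a1, Dcn and Lum), 1 at 6w (Dcn) and 3 at 9w (Col1a1, Dcn and Tagln). Col1a1 and Lum fell from 3w to 6w. Tagln, a smooth muscle actin-binding protein, rose at 9w (1.23, adjusted p = 0.00278) and had its highest mean there, as did Des, the filament protein desmin (0.81, under 2-fold). The 9 had sums of 5390–5446 at 0h, 15120–16030 at 3w, 8745–9112 at 6w and 9219–9449 at 9w. Cycling cell markers rose with the later times, 4 of 5 at 6w and 4 of 5 at 9w, with sums of 838.7–971.3 at 0h, 906.5–1053 at 3w, 2225–2693 at 6w and 2102–2168 at 9w. Of the 4 fat markers on the array 3 were below the filter, and the other, Cidea, a lipid droplet protein, rose at 6w (2.27) and 9w (2.38). The fat markers summed to 387.9–471.6 at 0h, 672.1–788.6 at 3w, 1769–1964 at 6w and 1918–2059 at 9w. Of 3 bile duct markers tested, Spp1, osteopontin, rose at 3w (1.07), 6w (3.01) and 9w (1.62). By the adjusted p alone the other 2 were lower at 6w, where the median of the 3 was -0.41, and all 3 were higher at 9w. From 6w to 9w Krt19 rose (1.52) and Spp1 fell (-1.39). The 6 bile duct markers on the array summed to 1431–1491 at 0h, 1639–1805 at 3w, 2494–2966 at 6w and 2454–2641 at 9w. No marker of these lists was at 0, and their part in the Slc25a4 result was not tested.

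Slc25a5, the ADP/ATP carrier of most other tissues, was slightly lower at 6w and 9w. Its signal was 16081.6 to 16865.7 at 0h, 15636.2 to 16714.9 at 3w, 13941.9 to 15532.1 at 6w and 13774.7 to 14565.0 at 9w. The 6w and 9w arrays all lay below the 0h arrays. The log2 change was -0.04 at 3w (adjusted p = 0.521), -0.16 at 6w (adjusted p = 0.00856) and -0.21 at 9w (adjusted p = 0.000908). RefSeq lists 9 pseudogenes of Slc25a5 and 1 of Slc25a4 among 31 of the family, and whether these probe sets also bind their transcripts was not tested. Slc25a31, the ADP/ATP carrier of testis, was below the filter at 4.2 to 58.3.

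Slc25a3 carries the phosphate used for ATP synthesis. Its signal ran from 8404.7 to 8681.0 over the 0h and 3w arrays and from 9781.1 to 10455.7 over the 6w and 9w arrays, with no overlap between these. Its changes were -0.02 at 3w (adjusted p = 0.774), 0.21 at 6w (adjusted p = 0.000165) and 0.20 at 9w (adjusted p = 0.000328), far from 2-fold.

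The ATP-Mg/phosphate carriers adjust the adenine nucleotide pool of the matrix. Slc25a25, one that calcium activates, read 1812.4, 1925.9 and 1958.4 at 0h and 1070.2, 1269.6 and 1044.7 at 3w. It read 3296.7, 3705.1 and 3495.4 at 6w and 1763.5, 1824.7 and 1711.0 at 9w. The 3w arrays were the lowest and the 6w arrays the highest, with no overlap with the rest, while 9w overlapped 0h. The change against 0h was -0.75 ± 0.07 (adjusted p = 2.58e-07) at 3w, 0.88 ± 0.07 (adjusted p = 1.33e-08) at 6w and -0.10 ± 0.07 (adjusted p = 0.229) at 9w, none of which reached 2-fold. Between 3w and 6w it rose by 1.62 ± 0.07 (adjusted p = 5.03e-12), or 3.08-fold. From 6w to 9w the difference was -0.98 (adjusted p = 1.73e-08), just short of 2-fold, and leaving out array 1 of 6w or array 2 of 9w made it a call, at -1.02 and -1.002. The CRE-bearing window printed above belongs to this gene. A CRE was in 1 of 32 carrier windows and in 2.1% of all windows, and any part of it in these values was not tested.

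Slc25a23, a paralog of Slc25a25, gave opposite results by its probe sets. The brightest read 868.8, 1004.9 and 872.3 at 0h, 3904.6, 3840.6 and 4073.5 at 3w, 2224.8, 2056.7 and 2007.1 at 6w, and 2202.9, 2416.0 and 2304.4 at 9w. By this probe set the 3w arrays were highest and every treated array lay above every 0h array. The changes were 2.09 ± 0.06 (adjusted p = 1.63e-13), 1.18 ± 0.06 (adjusted p = 8.21e-11) and 1.32 ± 0.06 (adjusted p = 2.09e-11) at 3w, 6w and 9w. In the authors' deposited table its mean log2 ratios were 1.767, 0.922 and 0.956, those at 6w and 9w short of 2-fold. The second probe set read 783.6, 842.6 and 802.6 at 0h, 586.3, 562.8 and 549.5 at 3w, 354.6, 298.4 and 332.0 at 6w, and 276.0, 220.9 and 221.8 at 9w. By this one every later group lay below 0h, with no overlap. With every probe set tested as a unit its changes were -0.50 (adjusted p = 0.00113), -1.26 (adjusted p = 2.77e-08) and -1.70 (adjusted p = 6.94e-10), which is a fall at 6w and 9w. Another probe set, at 16.6 to 93.1 at 0h, was below the filter. Which of them reads the protein-coding transcript was not tested, so no direction is given for the gene.

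The remaining ATP-Mg/phosphate carriers were not called against 0h. Slc25a24 read 323.1 to 378.7 at 0h, 393.3 to 465.6 at 3w, 294.9 to 371.5 at 6w and 491.5 to 515.8 at 9w, with changes of 0.31 (adjusted p = 0.032), -0.06 (adjusted p = 0.677) and 0.52 (adjusted p = 0.000812). The 3w and 9w arrays lay above the 0h arrays and the 6w arrays overlapped them. Slc25a41, a relative without the calcium-binding domain, read 44.0 to 118.4 over all arrays, with no adjusted p under 0.05.

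**Figure D2:**
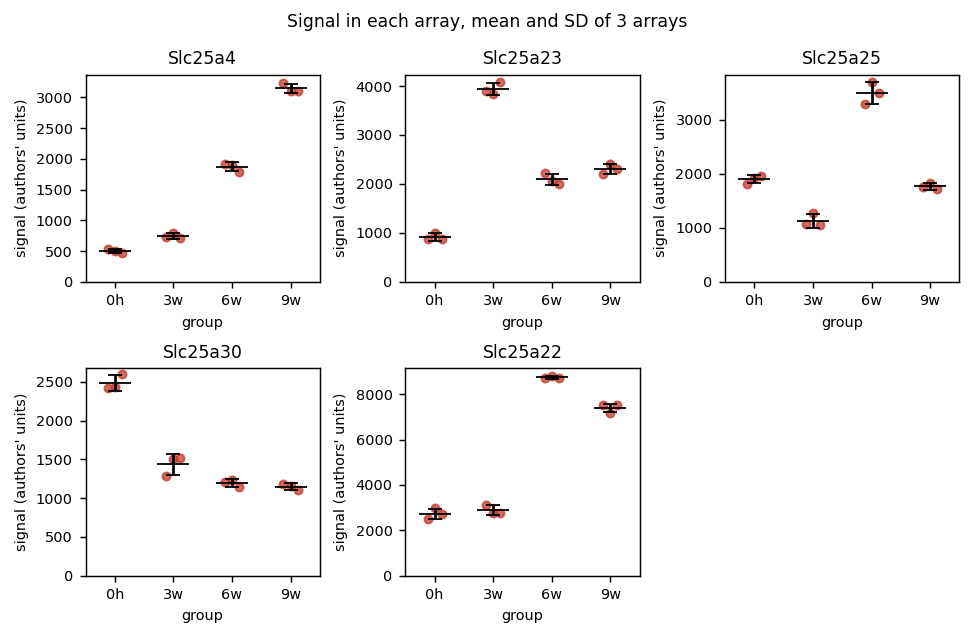
Signal (authors' scaled units, linear axes from 0) in each array (points) for the 5 carriers called in at least 1 comparison, by group, with the mean (long bar) and SD (error bar) of 3 arrays. Slc25a4 is higher at each later time up to 3234.1, Slc25a25 is lowest at 3w and highest at 6w, and Slc25a30 is highest at 0h (2419.3 to 2600.5).

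Among the uncoupling proteins and their relatives, Slc25a30 fell. Slc25a30 is a carrier close to the brain uncoupling proteins, named for its abundance in kidney. It read 2419.3, 2439.7 and 2600.5 at 0h and 1283.7, 1503.8 and 1516.9 at 3w. It read 1206.7, 1234.7 and 1140.0 at 6w and 1184.7, 1157.8 and 1100.8 at 9w. The 0h arrays stood above all others, and 6w and 9w overlapped each other. The changes were -0.79 ± 0.07 (adjusted p = 8.82e-08), -1.05 ± 0.07 (adjusted p = 8.48e-10) and -1.10 ± 0.07 (adjusted p = 4.85e-10). For Slc25a30 the authors' deposited table gives mean log2 ratios of -0.789, -1.011 and -0.9, so that at 9w is short of 2-fold. Its second probe set gave -0.88, -0.90 and -1.37, so both were lower at each time, and the fall at 6w passed 2-fold by the brightest alone.

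Ucp2, the uncoupling protein relative found in immune cells and many tissues, was higher at 3w and 9w but not at 6w. It read 707.8 to 797.3 at 0h, 1228.5 to 1307.3 at 3w, 590.8 to 908.0 at 6w and 1114.7 to 1435.4 at 9w. The 6w arrays overlapped 0h, and the 3w and 9w arrays lay above both. The changes were 0.75 ± 0.12 (adjusted p = 0.000133), 0.03 ± 0.12 (adjusted p = 0.863) and 0.71 ± 0.12 (adjusted p = 0.000122), below 2-fold, and 6w was lower than 3w by -0.72 (adjusted p = 0.000127). Of 9 macrophage and Kupffer cell markers 0 were called by limma at 3w or 9w against 0h, while Emr1, Aif1 and Itgam fell at 6w. At 3w 5 of the 9 were higher and 1 lower by the adjusted p alone, against 22.5% and 20% of all genes. At 9w 3 were higher and 2 lower, against 32.9% and 22.8% of all genes. By the adjusted p alone 8 of 9 were lower at 6w than at 0h and 8 of 9 lower than at 3w, and Cd163 was the exception, 0.55 higher at 6w than at 3w. Their sums were 30310–31070 at 0h, 37110–38030 at 3w, 18420–19080 at 6w and 29990–30840 at 9w. Of 9 lymphocyte markers 4 fell at 6w and 1 at 9w, with sums of 4261–4494, 4443–4496, 1659–1804 and 4361–4478 in the order of the groups. Counted by the adjusted p alone, 2 of these were higher and 0 lower at 3w, and 3 were higher and 1 lower at 9w. No marker of either list was at 0, and their part in the Ucp2 values was not tested.

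Ucp1, the uncoupling protein of brown fat, was below the filter at 19.6 to 88.2. Ucp3, that of muscle, read 40.7 to 155.7 over the 12 arrays, and its adjusted p was above 0.05 at each time. Slc25a27 and Slc25a14, relatives best known from brain, had no adjusted p under 0.05 in any of the 5 comparisons. Over all arrays Slc25a27 ranged from 35.5 to 113.9, and Slc25a14 from 86.9 to 186.4.

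Among the carriers of aspartate and glutamate, Slc25a22 rose and Slc25a13 was lower. Slc25a22 imports glutamate into the matrix together with a proton. It read 2497.3, 2960.3 and 2710.4 at 0h and 3134.6, 2782.8 and 2769.1 at 3w. It read 8702.7, 8831.1 and 8723.7 at 6w and 7510.1, 7184.2 and 7513.7 at 9w. The 3w arrays overlapped 0h, and the 6w and 9w arrays stood far above both, 6w the highest. The changes were 0.09 ± 0.06 (adjusted p = 0.25), 1.68 ± 0.06 (adjusted p = 3.18e-13) and 1.44 ± 0.06 (adjusted p = 2.79e-12), or 3.21-fold at 6w and 2.71-fold at 9w. From 3w to 6w it rose by 1.59 ± 0.06 (adjusted p = 8.37e-13), and 9w was -0.24 from 6w (adjusted p = 0.00633). The authors' deposited table gives mean log2 ratios of -0.211, 1.589 and 1.3 for it. Slc25a18, the other glutamate carrier, was below the filter at 5.6 to 36.9.

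Slc25a13 is citrin, the aspartate/glutamate carrier of liver, which supplies cytosolic aspartate to the urea cycle and serves the malate-aspartate shuttle. Its brightest probe set read 8616.0 to 9469.9 at 0h, 7800.6 to 8392.3 at 3w, 5051.9 to 5335.9 at 6w and 4689.4 to 5123.5 at 9w. The 0h arrays lay above all others and the 6w and 9w arrays below those of 3w. The changes were -0.18 ± 0.05 (adjusted p = 0.00821), -0.81 ± 0.05 (adjusted p = 3.51e-10) and -0.90 ± 0.05 (adjusted p = 1e-10). None reached 2-fold, but the second probe set gave -0.31, -0.95 and -1.47 and fell at 9w. Slc25a12, its paralog of brain and muscle, read 240.4 to 356.1 over all arrays and was higher by 0.38 (adjusted p = 0.021) at 6w.

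The cytosolic and matrix enzymes of the malate-aspartate shuttle were given beside these carriers. None of its 4 enzymes was called against 0h, and the medians were -0.14, -0.15 and -0.36 at 3w, 6w and 9w. Got1, the cytosolic aspartate aminotransferase, rose from 3w to 6w by 1.57 ± 0.05 (adjusted p = 2.53e-14). It read 3779.6 to 4040.3 at 3w and 11110.2 to 11929.8 at 6w, and the 3w arrays were the lowest and the 6w arrays the highest of the 4 groups. That order was also seen for Slc25a25 and, by its brightest probe set, Slc25a15. Among the 4 enzymes, 2 were higher and 2 lower from 3w to 6w by the adjusted p alone, with a median of -0.06.

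Slc25a15 exchanges cytosolic ornithine for matrix citrulline in the urea cycle. It read 6929.1 to 7519.8 at 0h, 4200.4 to 4356.2 at 3w, 7830.5 to 8615.1 at 6w and 4776.4 to 5085.9 at 9w. The 3w and 9w arrays lay below 0h and the 6w arrays above it. The changes were -0.75 ± 0.05 (adjusted p = 2.32e-09), 0.18 ± 0.05 (adjusted p = 0.00409) and -0.55 ± 0.05 (adjusted p = 3.83e-08). Its second probe set gave -0.81, -0.04 and -0.83. The difference of 6w from 3w was 0.93 (adjusted p = 4.54e-11), short of 2-fold.

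Of the 6 urea cycle enzymes, Asl, argininosuccinate lyase, fell at 3w (-1.06, adjusted p = 2.01e-10) and rose from 3w to 6w (1.23). Otc, which makes citrulline in the matrix from the imported ornithine, fell at 6w (-1.24, adjusted p = 6.27e-14) and at 9w (-1.18, adjusted p = 1.33e-13). Its signal was 15627.9 to 16723.5 at 0h, 6756.7 to 6877.7 at 6w and 6962.5 to 7175.5 at 9w, with no overlap with 0h. The 6 enzymes had medians of -0.14, -0.14 and -0.34 at 3w, 6w and 9w.

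Of the other amino acid carriers, Slc25a44, which imports branched-chain amino acids in mouse brown fat, read 387.0 to 512.6 at 0h, 665.0 to 886.2 at 3w, 774.8 to 829.6 at 6w and 596.8 to 807.6 at 9w. All 9 later arrays lay above the 0h arrays. The changes were 0.74 (adjusted p = 0.000155), 0.82 (adjusted p = 2.86e-05) and 0.58 (adjusted p = 0.000741), and a second probe set gave 0.36, 0.08 and 0.24. Slc25a29, a carrier of basic amino acids, and Slc25a38, the glycine importer for heme synthesis, had no adjusted p under 0.05 against 0h.

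**Figure D3:**
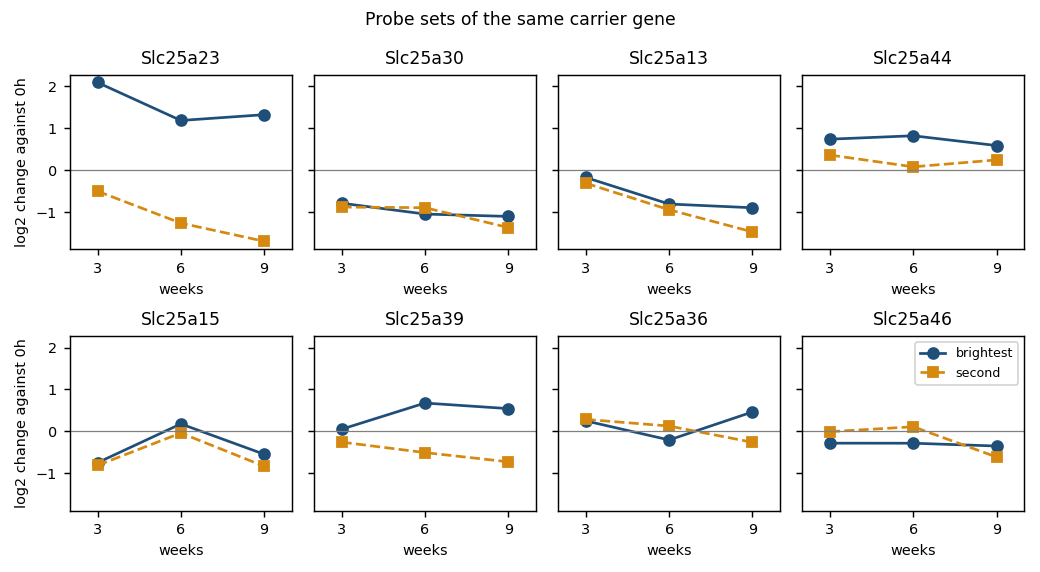
Log2 change of signal + 16 against 0h (vertical axis) at 3, 6 and 9 weeks (horizontal axis) by the brightest (circles) and second (squares) probe set of the 8 carriers with more than 1 probe set above the filter, from 3 arrays per group. The probe sets have opposite signs at each time for Slc25a23 (2.09 against -0.50 at 3 weeks) and Slc25a39. They have the same sign at each time for Slc25a13, Slc25a30 and Slc25a44.

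Over the 8 carriers with more than 1 probe set above the filter, 14 of 24 pairs of changes against 0h had the same sign and 10 did not, and 8 differed by over 0.5. Slc25a39 was a case of the second kind. It is the importer of glutathione, and by its brightest probe set it was higher at 6w (0.68, adjusted p = 4.12e-09) and 9w (0.54, adjusted p = 7.43e-08). That probe set read 4150.2 to 4616.4 at 0h, 4273.8 to 4720.5 at 3w, 6838.8 to 7183.5 at 6w and 6318.3 to 6464.2 at 9w, so that 6w and 9w lay above the rest. Its second probe set read 163.5 to 204.0 in the 0h arrays and gave -0.51 and -0.73.

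The carriers of iron were the mitoferrins. Slc25a28, the mitoferrin of most tissues, read 446.4 to 541.9 at 0h, 411.0 to 467.0 at 3w, 587.5 to 739.9 at 6w and 763.8 to 798.0 at 9w. The 6w and 9w arrays lay above the others, with changes of 0.41 (adjusted p = 0.0026) and 0.66 (adjusted p = 2.97e-05). Slc25a37, the mitoferrin of red cell precursors, read 328.3 to 371.8 at 0h, 285.1 to 338.8 at 3w, 251.3 to 260.1 at 6w and 351.3 to 371.5 at 9w. It was lowest at 6w (-0.44, adjusted p = 0.0028), where the arrays did not overlap those of 0h. Of 5 red cell markers tested, Hbb, Hba-a2, Eraf and Alas2 fell at 6w, and Hbb, Eraf and Slc4a1 fell at 9w. Slc4a1, the red cell anion exchanger, was lowest at 9w (-1.22 against 0h) and was -0.16 from 0h at 6w (adjusted p = 0.431). The 6 on the array summed to 58860–65520 at 0h, 55500–59040 at 3w, 12680–14140 at 6w and 32340–34240 at 9w, with none at 0. Their part in the Slc25a37 values was not tested.

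Of 8 enzymes of mitochondrial glutathione and heme supply, 1 was called against 0h. Gclc, the catalytic subunit that limits glutathione synthesis, rose at 3w by 1.14 ± 0.05 (adjusted p = 7.55e-11), from 1375.0–1523.3 at 0h to 3178.4–3213.6. It was 0.44 higher at 6w and 0.81 higher at 9w, both under 2-fold.

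None of the 5 carriers of citrate, malate and oxoglutarate was called in any comparison. Slc25a10, which exchanges malate or succinate for phosphate, read 3174.7 to 3570.8 at 0h, 4720.2 to 5164.4 at 3w, 3378.7 to 3479.3 at 6w and 2780.6 to 3083.3 at 9w. The 3w arrays stood above all others (0.55 ± 0.06, adjusted p = 7.17e-07) and the 9w arrays lay below 0h (-0.21, adjusted p = 0.00449). Slc25a11, the oxoglutarate carrier of the malate-aspartate shuttle, read 2999.0 to 3069.0 at 0h, 2350.2 to 2697.3 at 3w, 2226.7 to 2250.3 at 6w and 2173.5 to 2346.4 at 9w. All later arrays lay below 0h, with changes of -0.25 (adjusted p = 0.00133), -0.44 (adjusted p = 2.89e-06) and -0.42 (adjusted p = 4.62e-06).

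Slc25a21, the carrier of longer oxodicarboxylates, was lower at 3w (-0.59, adjusted p = 0.0028), at 209.0 to 256.0 against 316.4 to 381.9 at 0h. Slc25a35, whose substrate is less settled, was lower at 9w (-0.70, adjusted p = 0.0342) at 43.4 to 68.3 against 88.4 to 107.5. Slc25a1 exports the citrate used for lipid synthesis. It was higher at 3w (0.27, adjusted p = 0.000429) and 9w (0.34, adjusted p = 3.03e-05), from 2456.1–2747.3 at 0h to 3015.2–3212.1 and 3197.2–3280.7, without overlap.

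The enzymes that use exported citrate were given beside Slc25a1. Of 6, Acaca (1.04, adjusted p = 5.46e-09) and Fasn (1.003, adjusted p = 3.87e-09), which build fatty acids, rose at 3w. At 6w Me1, the cytosolic malic enzyme, rose (1.20, adjusted p = 1.21e-11), while Acly (-1.17, adjusted p = 5.55e-10), which splits citrate, and Fasn (-1.18, adjusted p = 1.42e-10) fell. None of the 6 was called at 9w. Fasn had a mean of 4551, 9102, 1996 and 3430 in the order of the groups, and Acly 7370, 8437, 3250 and 3760. At 6w the change of Slc25a1 was 0.12 (adjusted p = 0.0505).

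Slc25a20, the carnitine/acylcarnitine carrier for fatty acid oxidation, varied little. It read 2756.8 to 2820.3 at 0h, 2344.7 to 2506.9 at 3w, 2966.5 to 3135.1 at 6w and 2447.3 to 2623.1 at 9w, with changes of -0.20 (adjusted p = 0.00318), 0.14 (adjusted p = 0.019) and -0.14 (adjusted p = 0.0221). The 3w and 9w arrays lay below 0h and the 6w arrays above it. Cpt1a, the outer membrane enzyme that makes its substrate, fell at 3w by 2.63 on the log2 scale (SE 0.08, adjusted p = 1.03e-13), from 7257.7–7688.3 to 1057.7–1374.5, and rose again by 2.55 from 3w to 6w. None of the other 4 carnitine shuttle enzymes was called against 0h.

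None of the 4 carriers of cofactors and nucleotides was called in any comparison. Slc25a16 was higher at 3w (0.22, adjusted p = 0.0367) and lower at 9w (-0.42, adjusted p = 0.000248), at 1179.2 to 1443.0 against 1696.5 to 1937.2 at 0h. Slc25a36, a pyrimidine nucleotide carrier, was higher at 9w (0.46, adjusted p = 0.0024), at 364.3 to 380.1 against 245.0 to 289.3, but its second probe set gave -0.26. Slc25a17, a peroxisomal carrier of coenzymes, was higher at 6w (0.35, adjusted p = 0.000274) and 9w (0.31, adjusted p = 0.000762). Slc25a42, a coenzyme A carrier, was higher at 6w (0.32, adjusted p = 0.00732). Slc25a46, an outer membrane protein of the family that acts in mitochondrial shape, was lower at 3w, 6w and 9w (-0.28, -0.28 and -0.35, the highest adjusted p being 0.000511), and its second probe set gave -0.01, 0.11 and -0.61. Of the 5 mitochondrial folate and S-adenosylmethionine enzymes tested, Gnmt, glycine N-methyltransferase, fell at 6w (-1.26) and 9w (-1.11).

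The consecutive times were compared next. From 3w to 6w 3 of 33 rose and none fell (9.09%), against 7.52% of all genes (3.21% rose and 4.31% fell): Slc25a25 (1.62), Slc25a22 (1.59) and Slc25a4 (1.32). The median of the carriers was 0.08 and that of all genes 0.02. By the adjusted p alone 12 were higher and 10 lower, against 48.9% of all genes (26.3% and 22.7%). Slc25a23 had the lowest value of the 33, -0.91 (adjusted p = 3.09e-09), by its brightest probe set. From 6w to 9w 0 of 33 were called by limma, against 2.52% of all genes (1.94% rose and 0.581% fell), and 13 had an adjusted p under 0.05 (25.9% of all genes, 14.8% higher and 11% lower), 6 higher and 7 lower. The widest of these were Slc25a25 (-0.98), Slc25a4 (0.75) and Slc25a15 (-0.72), and the median was -0.13 beside 0.03 for all genes.

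**Figure D4:**
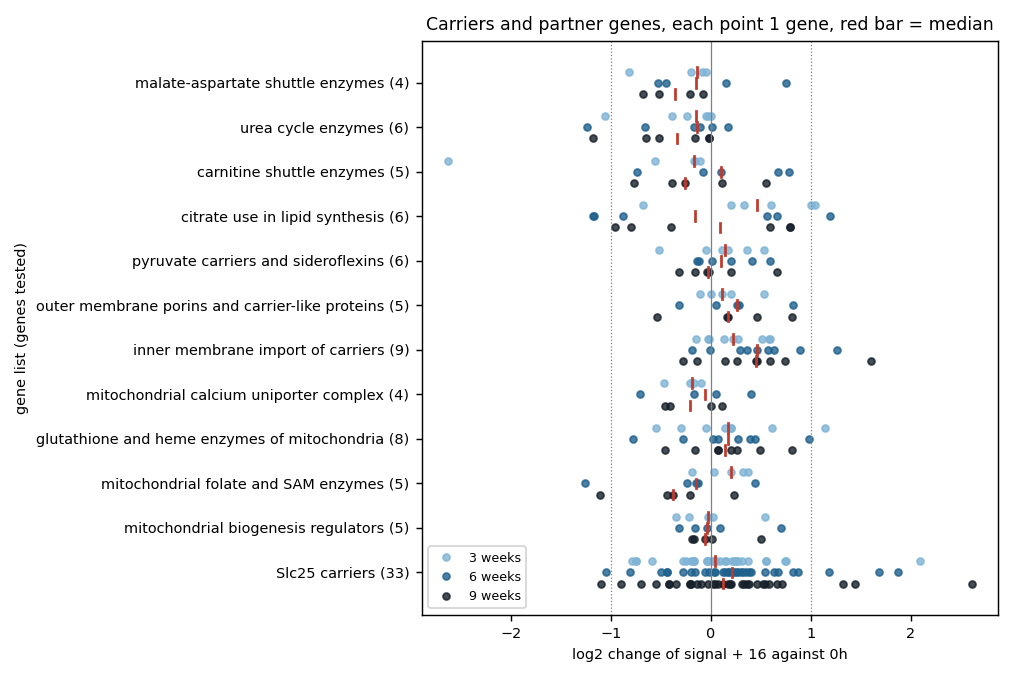
Log2 change of signal + 16 against 0h (horizontal axis) for each tested gene (points, coloured by week) of 11 lists of partner genes and of the 33 carriers; red bars are medians and dotted lines mark 2-fold. List medians reach 0.47 for inner membrane import at 6 weeks, and the points farthest from 0 are Cpt1a at 3 weeks (-2.63) and Slc25a4 at 9 weeks (2.62).

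Proteins that work beside the carriers were mostly not called, as were most genes. Against 0h, 4.22% of all genes tested were called at 3w, 9.59% at 6w and 9.95% at 9w. Among 9 subunits of the import route that inserts carriers into the inner membrane, Tomm40, the pore of the outer membrane, rose at 6w (1.27 ± 0.10, adjusted p = 1.64e-08) and 9w (1.60 ± 0.10, adjusted p = 8.93e-10). It read 439.5 to 558.1 at 0h, 686.5 to 833.9 at 3w, 1175.8 to 1314.9 at 6w and 1357.3 to 1710.1 at 9w, so that each later group lay above the one before it. Of the 9, 7 were higher and 1 lower at 6w by the adjusted p alone, against 30% and 24.4% of all genes. The median of the 9 was 0.47, where all genes had 0.03. None of the 5 porins and carrier-like proteins of the outer membrane, the 6 pyruvate carriers and sideroflexins, the 4 tested subunits of the calcium uniporter or the 5 tested regulators of mitochondrial biogenesis was called against 0h.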

How the data were processed

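Liver RNA was measured on 12 arrays, 3 in each of the groups 0h, 3w, 6w and 9w, assigned from the labels. The submitters' processing notes name GCOS 2.0. The deposited table holds 1 intensity (signal) column per array, linear and scaled by the authors: with 2% trimmed at both ends, every array had a mean of 500.0. Values of the series table differed from these by at most 0.1. The authors' deposited table also holds 9 columns of log2 ratios per time, used only where named, and the sources used here give no method for them. Detection calls were not used here.

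Signals were taken as log2(signal + 16), with no renormalization. Array medians were 7.09 to 7.31, and arrays correlated at 0.967 to 0.978 within groups and 0.938 to 0.969 between them, across probe sets. The brightest probe set of a gene stood for it when its mean exceeded the 40th percentile over probe sets (6.52). The fit used limma 3.58.1 (R 4.3.3) on all arrays with 1 mean per group (lmFit, eBayes with intensity trend, 8 residual degrees of freedom, median residual SD 0.13), with Benjamini-Hochberg adjustment over 10319 genes. On simulated data for 3w against 0h over 10319 genes, 98% of genes changed by 1.5 log2 units and 100% of those changed by 2.5 were recovered. The number of arrays limits the precision.

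Values in every array are given for carriers called in any of the 5 comparisons, and ranges for up to 4 others per role with an adjusted p under 0.05. Partner and marker genes are named where called, mostly up to 4 per list, and a few that were not called are named beside a carrier. One gene that the symbol rule takes is not reported here, though it stayed in the fit over all genes. The members and lists were chosen with earlier results of these data known. Same-numbered arrays did not deviate together (r from -0.04 to 0.13 over 18 pairs, 2 of them over 0.1), so the numbers only name arrays. Alternatives changed the pseudocount, filter, scaling, choice of probe set, replicate block, variance trend, minimum fold, arrays fitted and value table, and left out each array in turn. The second probe set of a gene was added as an alternative after the data were seen. Promoters came from RefSeq on GRCr8, and motifs were searched on both strands.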

Additional observations from a re-analysis of the deposited data

Results flagged for a closer look

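For 3 of 33 carriers the change against 0h differed by at least 2-fold between 6w and 3w. Each had an adjusted p under 0.05 in a limma test of 6w against 3w itself. These are 9.09% of the carriers, where 7.52% of all genes were called. By the adjusted p alone it was 22 of 33 (66.7%), against 48.9% of all genes. The arrays of the 2 times did not overlap for the 3. Since the 3 were picked by this test, their adjusted p and the lack of overlap add no separate support. The change at 6w minus that at 3w was 1.59 log2 units for Slc25a22, 1.62 for Slc25a25 and 1.32 for Slc25a4, in 3 arrays per group, and the highest adjusted p of the 3 was 3.66e-11. Slc25a25 was lower than 0h at 3w (-0.75) and above it at 6w (0.88). Slc25a22 and Slc25a4 moved upward from 0.09 and 0.55 to 1.68 and 1.87.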

How the results depend on the processing

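The number of carriers called was 1, 4 and 4 at 3w, 6w and 9w against 0h, 3 for 6w against 3w and 0 for 9w against 6w. Of the recomputed counts, 116 stayed within 1.5 times and 14 did not. With a minimum of 1.5-fold the counts were 7, 8, 9, 8 and 6, and with no minimum change 16, 19, 22, 22 and 13. With the mean over a gene's probe sets the count was 0 at 3w and 2 at 6w. Leaving out 1 array gave 0 to 1 for 9w against 6w (1, Slc25a25, without array 1 of 6w or array 2 of 9w), and the other 4 counts did not move. With the mean over probe sets Slc25a23 read 0.79, -0.041 and -0.19 at the 3 times, and by its second probe set -0.50, -1.26 and -1.70, which reverses it. Slc25a30 at 6w read -0.97 and -0.90 in the same settings, and Slc25a13 at 9w became a call at -1.19 with the mean. With quantile normalization 4 carriers were called for 6w against 3w, Slc25a15 (1.01) being added. The cause of these differences was not tested.

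Of the recomputed changes of called carriers, 285 stayed on their side of the threshold with the same direction, 3 lost the call and 5 reversed, all 5 being Slc25a23. Several settings leave the size of a change as it was, such as the filter or leaving out an array of a group not compared. The 285 is therefore not a measure of how firm the calls are. The replicate block, which is not a pairing here, left the counts at 1, 4, 4, 3 and 0 and changed no call. Centring each array on its median moved the median of all genes at 3w from 0.01 to -0.09 and that of the carriers from 0.05 to -0.05, so small changes at 3w have no settled sign. The share of rises among all called genes then went from 69.4% to 57.1% at 3w, with 232 rises and 174 falls where the signals as deposited gave 302 and 133. Dim probe sets limit Slc25a27, Slc25a35, Slc25a41 and Ucp3, and technical arrays leave the spread between animals unmeasured.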

Other observations

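One further gene of the family is listed on the array under an older symbol and so lies outside the rule used: Mcart1, now Slc25a51, the carrier that imports NAD into mitochondria. Its signal was 1341.3 to 1381.8 at 0h, 1310.9 to 1383.5 at 3w, 1071.6 to 1187.7 at 6w and 1139.3 to 1149.5 at 9w. The 6w and 9w arrays lay below all the 0h and 3w arrays. The limma changes against 0h were -0.02 (adjusted p = 0.776), -0.27 (adjusted p = 0.000663) and -0.25 (adjusted p = 0.00161), all under 2-fold.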
